A study of Homo sapiens with 11 samples.

Results

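The wider mH2A1.1-only peaks are 3679 stretches of 6 to 21 kb in which the deposited peak lists place the histone variant macroH2A1.1 (mH2A1.1) and show no peak for total macroH2A1 (mH2A1). They were chosen by measured values, the peak positions of 2 ChIP-seq libraries: a member is a peak of the mH2A1.1 list, 6000 to 21000 bp wide after rounding to the 3000 bp grid of the list, that shares no base with any of the 24222 peaks of the mH2A1 list. They made up 12% of all 30687 mH2A1.1 peaks and 19.5% of the 18838 mH2A1.1 peaks without an mH2A1 overlap. Width and lack of overlap are therefore properties of the rule and not results. Both libraries came from MDA-MB-231 cells, an established human line of triple-negative breast cancer, and no treatment is recorded for them. There was 1 library for a custom polyclonal antibody against mH2A1.1 and 1 for the antibody Ab37264 against both mH2A1 isoforms. The study describes Ab37264 as less affine for tagged mH2A1.1 than its custom antibody, and the mH2A1 library had fewer uniquely mapped reads. For its own analyses the study kept the peaks common to both libraries, a set that members fall outside. The part of antibody and read depth in the lack of overlap was not tested. RNA-seq of the same line compared 2 wild-type (WT) libraries, from cells given the transfection reagent without siRNA, with 2 libraries of mH2A1.1 knockdown (KD), from cells given siRNA at 11 nM, all collected at day 3. Nothing in the labels says that the replicates were separate cultures, so p-values measure the spread between these libraries, which may be technical. The peaks have no replicate, and their shares are given with 95% Clopper-Pearson intervals that cover counting error only.

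MacroH2A1 is a histone H2A variant that carries a large globular macro domain outside the nucleosome core. Splicing of its mRNA yields mH2A1.1, whose macro domain binds ADP-ribose, and mH2A1.2, whose macro domain does not. The variant is best known from broad silent domains and the inactive X chromosome, and mH2A1.1 has also been found at transcribed genes together with PARP1, the enzyme that makes poly(ADP-ribose).

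Sequences are printed from 2 kinds of member. The first are members over promoters, shown for the 3 genes with the highest WT level among those that start in a member, H1-4 (linker histone H1.4), TMSB10 (the actin monomer binding protein thymosin beta 10) and H1-2 (linker histone H1.2), and for PAFAH1B2 (a catalytic subunit of platelet-activating factor acetylhydrolase) and E2F3 (a transcription factor of S phase entry), whose levels differed between KD and WT libraries as described further on. Each is RefSeq sequence of GRCh38.p14 on the strand of the gene, 240 bases ending 11 bases before the RefSeq transcription start site (TSS). Capitals mark matches on either strand to CCAAT and AAACACA (a box of histone H1 genes) and TATANA in the histone promoters, to GGGCGG (bound by SP and KLF factors) and TATANA in TMSB10, to CCAAT and GGGCGG in E2F3, and to GGGCGG and CCGGAA (bound by ETS factors) in PAFAH1B2. They lie at chr6:26156079-26156318 (plus strand) for H1-4, chr6:26056481-26056720 (minus) for H1-2, chr2:84905406-84905645 (plus) for TMSB10, chr6:20401629-20401868 (plus) for E2F3 and chr11:117144037-117144276 (plus) for PAFAH1B2.
H1-4: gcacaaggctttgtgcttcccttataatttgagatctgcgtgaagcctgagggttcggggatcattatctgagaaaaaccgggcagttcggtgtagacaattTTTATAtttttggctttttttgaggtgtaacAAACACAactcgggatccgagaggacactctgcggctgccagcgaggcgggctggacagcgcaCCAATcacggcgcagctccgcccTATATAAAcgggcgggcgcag
H1-2: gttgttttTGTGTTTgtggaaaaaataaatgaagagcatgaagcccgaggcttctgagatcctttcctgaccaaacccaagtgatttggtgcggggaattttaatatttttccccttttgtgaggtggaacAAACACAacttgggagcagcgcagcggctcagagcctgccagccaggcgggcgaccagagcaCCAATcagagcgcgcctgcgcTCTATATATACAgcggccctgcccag
TMSB10: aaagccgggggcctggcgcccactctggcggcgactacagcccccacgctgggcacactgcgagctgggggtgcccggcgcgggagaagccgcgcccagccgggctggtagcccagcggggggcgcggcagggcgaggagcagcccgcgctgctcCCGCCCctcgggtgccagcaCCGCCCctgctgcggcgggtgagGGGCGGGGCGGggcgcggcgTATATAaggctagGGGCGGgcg
E2F3: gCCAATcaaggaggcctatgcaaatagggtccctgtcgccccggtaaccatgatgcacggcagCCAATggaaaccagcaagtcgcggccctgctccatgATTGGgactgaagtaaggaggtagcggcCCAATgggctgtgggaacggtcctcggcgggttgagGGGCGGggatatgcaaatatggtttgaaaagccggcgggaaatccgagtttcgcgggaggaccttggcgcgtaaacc
PAFAH1B2: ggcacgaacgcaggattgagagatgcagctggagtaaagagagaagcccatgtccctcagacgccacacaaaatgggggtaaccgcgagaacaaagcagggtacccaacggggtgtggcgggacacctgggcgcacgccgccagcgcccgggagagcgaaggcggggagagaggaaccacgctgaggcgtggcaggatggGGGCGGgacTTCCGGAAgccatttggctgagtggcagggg

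In the promoters of H1-4 and H1-2 1 match of each element stood in the same order, with AAACACA at base 134 and 132, CCAAT at base 197 and 194 and TATANA at base 220 and 217, counted from the first printed base. H1-4 held 3 matches to TATANA in all, and H1-2 held 4, with 2 matches to AAACACA. The TMSB10 promoter held 5 matches to GGGCGG and the E2F3 promoter held 4 matches to CCAAT.

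The second is a member dense in matches to TGANTCA, shown because its matches recur at a fixed step. TGANTCA is a loose pattern for the site of AP-1 (FOS and JUN) factors, and its N admits any base. This member of 6000 bp, chr12:117099001-117105000, which contains the TSS of TESC, held 16 matches (2.67 per kb), and 13 of the steps between neighbouring matches were of 56 bp. The 170 bases printed from it, with TGANTCA in capitals, are plus-strand sequence of GRCh38 at chr12:117103058-117103227, in an intron of the antisense gene TESC-AS1. All 3 matches in these bases read TGATTCA, and whether AP-1 binds them was not tested.
Member on chromosome 12: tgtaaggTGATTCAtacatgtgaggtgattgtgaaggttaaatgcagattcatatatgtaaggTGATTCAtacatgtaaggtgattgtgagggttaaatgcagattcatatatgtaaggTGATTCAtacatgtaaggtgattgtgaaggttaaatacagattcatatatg

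The members covered 35994000 bp, or 1.17% of the genome and 12.4% of all bases under mH2A1.1 peaks. By width, 1266 members were 6 kb, 1034 were 9 kb, 873 were 12 kb, 257 were 15 kb, 156 were 18 kb and 93 were 21 kb wide. Just outside the width limits, 15042 mH2A1.1-only peaks were 3 kb and 45 were 24 kb wide. At the limit on overlap, 679 members touched an mH2A1 peak edge to edge and 397 were 3000 bp from one, while 2320 mH2A1.1 peaks of the same widths shared 3000 bp or less with an mH2A1 peak and so were left out. Members were thus often close to total mH2A1, with a median distance of 12000 bp to the nearest mH2A1 peak, quartiles at 3000 and 30000 bp, and 205 members (5.57%) farther than 100 kb. Because neighbouring peaks of a list are never closer than 9000 bp, smaller gaps inside a member cannot be read from the list.
They lay on 23 chromosomes and none on Y. Their density was highest on chromosome 19, with 168 members (287 per 100 Mb), and on chromosome 17, with 184 (221 per 100 Mb), and it was lowest on chromosome 13, with 53 (46.3 per 100 Mb), and on X, with 76 (48.7 per 100 Mb). The share of mH2A1.1 peaks that were members varied less between these chromosomes, at 14.3%, 12.9%, 9.80% and 10.3% in the same order.

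Most members lay in or across genes. With the genes of the count table placed by GENCODE release 44, 888 members (24.1%, 95% interval 22.8% to 25.6%) contained a TSS, a further 1765 (48.0%, 46.3% to 49.6%) lay in or across a gene without its TSS, and 1026 (27.9%, 26.4% to 29.4%) lay between genes. These shares rest on 1 TSS per gene, and 48.6% of members contained the start of any annotated transcript, while 5.71% had their midpoint within 1 kb of a TSS. The 5636 peaks of the same widths that overlap an mH2A1 peak (mid-width common peaks) contained a TSS as often when all widths were pooled, in 24.4% (23.3% to 25.6%). They lay in or across a gene without its TSS in 37.2% (35.9% to 38.4%) and between genes in 38.4% (37.1% to 39.7%). Single-bin mH2A1.1-only peaks, the 15042 of 3 kb, contained a TSS in 8.95% (8.50% to 9.42%). They lay in or across a gene without its TSS in 51.8% (51.0% to 52.6%) and between genes in 39.2% (38.4% to 40.0%). A high share in genes without the TSS was thus not particular to members.
Width alone changes the chance to reach a gene, so the shares were set side by side within each width. Among members, the share in or across a gene was 67.9% (65.3% to 70.5%) at 6 kb and 81.7% (72.4% to 89.0%) at 21 kb, against 52.1% (49.3% to 55.0%) and 69.3% (65.3% to 73.1%) of mid-width common peaks. In each of the 6 widths the share was higher among members, and the intervals did not overlap from 6 to 15 kb and overlapped at 18 and 21 kb. The share with a TSS was 18.4% (16.3% to 20.7%) at 6 kb and 36.6% (26.8% to 47.2%) at 21 kb, against 14.4% (12.5% to 16.5%) and 35.6% (31.7% to 39.7%). It too was higher among members in each of the 6 widths, but the intervals of members and common peaks overlapped in every width. The near-equal pooled shares thus came from sets with different mixes of widths. These are values of 1 library for each antibody, and no test between the 2 sets of peaks was made.

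**Figure D1:**
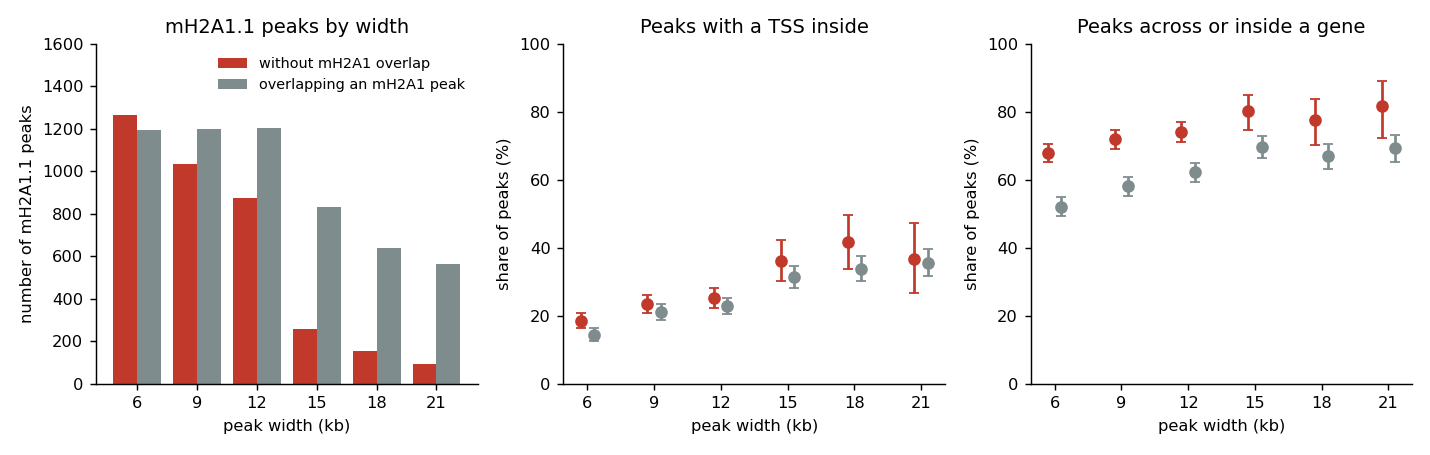
Left, number of mH2A1.1 peaks (y axis) by width in kb (x axis), with members in red and mid-width common peaks in grey. Middle and right, share of these peaks (y axis, %) with a TSS inside and in or across a gene, with bars for 95% Clopper-Pearson intervals: the share in or across a gene is higher for members in every width, 67.9% against 52.1% at 6 kb.

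Members with a TSS were not shifted to one side of it. Among the 659 members with a single TSS, a median of 4291 bp lay downstream and 4079 bp upstream, and 329 (49.9%, 46.0% to 53.8%) reached farther downstream than upstream. Of the 1075 mid-width common peaks with a single TSS, 43.3% (40.3% to 46.3%) did so, with medians of 4650 bp downstream and 6436 bp upstream. Members in or across a gene without its TSS were a median of 44265 bp from the TSS of that gene (the nearest where they lay in several), and 480 of them were more than 100 kb from it. These 1765 members were 9.02% exonic by bases. Members between genes were a median of 40149 bp from the nearest TSS, with quartiles at 16663 and 102813 bp.
The distance to total mH2A1 changed these shares little. A TSS was found in 22.7% (19.6% to 26.0%) of the 679 members that touched an mH2A1 peak and in 25.5% (22.6% to 28.6%) of the 842 members more than 30 kb from one.

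Of the 2889 genes with a member, 350 (12.1%) held more than 1. In detail, 2539 held 1, 269 held 2, 56 held 3, 16 held 4, 5 held 5, 3 held 6 and 1 held 9. DIP2C, a gene of 415468 bp on the minus strand of chromosome 10, held 9 members of 6 to 15 kb, which covered 25.3% of it. None of the 9 contained its TSS. They were spread over the gene, the nearest starting 23.7 kb and the farthest 372 kb after the TSS. The mH2A1.1 list had 12 peaks in the gene and the mH2A1 list had 1, which touched the member that starts 59.7 kb after the TSS. DIP2C was transcribed in WT cells, at 6.47 and 6.78 FPKM in the 2 libraries, where FPKM is the count scaled to exon length and to the reads on protein-coding genes.
TRIO (a guanine nucleotide exchange factor), SIPA1L3 (a Rap GTPase activating protein) and RUNX1 (a transcription factor of blood development) held 6 members each. In TRIO a member covered the TSS, and the other 5 started 104 to 362 kb into the gene. SIPA1L3 and RUNX1 had members in the body only. Their WT levels were 33.8 and 31.8 FPKM for TRIO, 21.7 and 22.6 FPKM for SIPA1L3 and 16.3 and 15.3 FPKM for RUNX1.
Another 5 genes held 5 members each. KDM4B (a histone demethylase) had 1 of them across its TSS, while RPTOR (a subunit of the mTORC1 kinase complex), GLI2 (a transcription factor of Hedgehog signalling), PRKCE (protein kinase C epsilon) and PDZD2 had them in the body only. Their mean WT levels ran from 1.43 FPKM in PDZD2 to 10.9 FPKM in RPTOR.

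**Figure D2:**
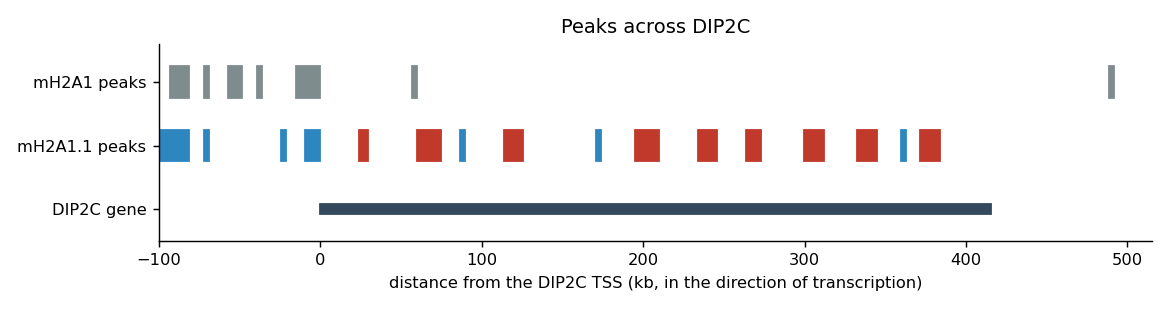
Peaks across DIP2C, by distance from its TSS in kb in the direction of transcription (x axis). The bar at the bottom is the gene, the middle row holds mH2A1.1 peaks (members red, others blue) and the top row mH2A1 peaks (grey): 9 members lie in the gene beside 1 mH2A1 peak.

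Genes that start in members were mostly transcribed in WT cells. The 1155 genes with a TSS in a member had a median WT level of 4.36 FPKM (quartiles 0.387 and 12.7), against 0.609 FPKM over all 23061 genes. On the scale of log2(FPKM + 0.1), the median was 2.13 and 2.17 in the 2 WT libraries, against -0.51 and -0.61 over all genes. Of the 1155 genes, 801 (69.4%) were above 1 FPKM, 355 (30.7%) above 10 FPKM and 28 above 100 FPKM, while 171 (14.8%) had no WT count, against 46.8%, 19.6% and 31.9% of all genes above 1 FPKM, above 10 FPKM and without a WT count. The 1733 genes with a TSS in a mid-width common peak had a median of 1.24 FPKM, with 23.4% of them without a WT count. The 1601 genes at single-bin mH2A1.1-only peaks had a median of 4.72 FPKM. Members therefore resembled the single-bin mH2A1.1-only peaks in this value more than common peaks of their own width. Among genes with enough counts for the KD test below, the medians of log2(FPKM + 0.1) were close. They were 2.92 at members, 2.84 at mid-width common peaks, 2.97 at single-bin mH2A1.1-only peaks and 2.81 over all genes. The contrast thus lay mainly in the share of genes with few or no counts.
The difference from common peaks in the share of genes above 1 FPKM was seen within widths. At 6 kb, 74.9% (69.6% to 79.8%) of 295 member genes and 56.9% (49.7% to 64.0%) of 195 common-peak genes were above 1 FPKM. The intervals did not overlap at 6, 9, 12 and 18 kb. At 21 kb the shares were 57.4% (43.2% to 70.8%) of 54 genes and 49.3% (43.3% to 55.3%) of 278, and these intervals overlapped. Among the genes at members that touched an mH2A1 peak, 63.9% (56.6% to 70.7%) were above 1 FPKM, against 71.1% (65.5% to 76.3%) at members more than 30 kb from one. The 1734 genes with a member in the body only had a median of 3.57 FPKM and were long, at a median of 83214 bp, where the median of all genes was 22641 bp.

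**Figure D3:**
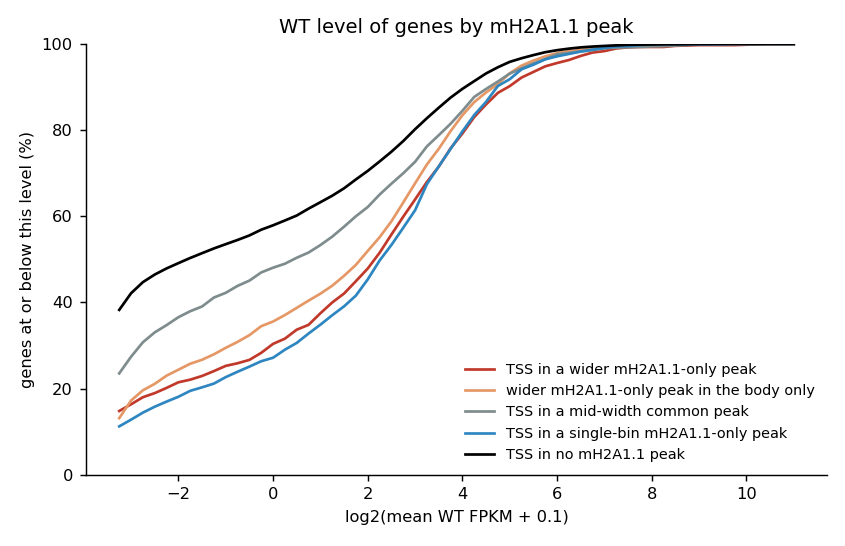
Cumulative share of genes (y axis, %) by WT level, as log2 of the mean FPKM of 2 WT libraries plus 0.1 (x axis), for genes grouped by mH2A1.1 peak. The curve of genes with a TSS in a member (red) runs beside that of single-bin mH2A1.1-only peaks (blue), below those of common peaks of the same widths (grey) and of genes with no mH2A1.1 peak at the TSS (black), and genes with a member in the body only are in orange.

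Histone genes stood at the top of the genes that start in members. H1-4 had 1279 and 1368 FPKM in the 2 WT libraries, and its member, chr6:26154001-26163000, was 45000 bp from the nearest mH2A1 peak. H1-2 had 894 and 955 FPKM, with its member at chr6:26055001-26061000. Of the 10 genes with the highest level, 5 were histone genes, the others of this kind being H4C2 (317 and 366 FPKM), H2BC5 (310 and 348) and H2AC20 (283 and 355), which encode core histones.
The group of replication-dependent histone genes was drawn up after these values were seen. Of its 60 genes in the table, 9 had a TSS in a member, in 5 members, 9 in a single-bin mH2A1.1-only peak and 37 in no mH2A1.1 peak. Over all genes, 5.01% had a TSS in a member, and histone genes that share a member are not separate placements. The 9 genes were between 59.2 and 1324 FPKM. Histone genes have near-identical copies, so reads could be split between or lost from them in counting.
The other genes of the top 10 were TMSB10 (1058 and 1151 FPKM), SH3BGRL3 (427 and 442), THBS1 (370 and 395), a secreted matrix glycoprotein, TPI1 (212 and 218), the glycolytic enzyme triosephosphate isomerase, and G0S2 (169 and 186), an inhibitor of fat breakdown. The TSS of TPI1 lay 118 bp inside the edge of its member, and the member of G0S2 touched an mH2A1 peak.

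Of the 93 widest members, at 21 kb, 34 contained a TSS, 42 lay in or across a gene without its TSS and 17 lay between genes. The 12 of these members with the highest WT level of the genes that start in them held 16 TSSs. SCD, which encodes stearoyl-CoA desaturase, stood at 140 and 128 FPKM in the 2 WT libraries. It was followed by ELOVL5 (a fatty acid elongase) at 87.6 and 87.9 FPKM, CD58 (a cell adhesion receptor) at 30.3 and 32.8, ABL1 (a tyrosine kinase) at 28.9 and 29.9 and ADD1 (the membrane skeleton protein adducin) at 23.4 and 24. DDX54 and RITA1 shared a member, at mean levels of 21.3 and 15.3 FPKM, as did MAP1LC3B (an autophagy protein) and FBXO31, at 17.3 and 2.71 FPKM. The other 5 members held FDFT1 (squalene synthase), MCM10 (a replication initiation factor), ZC3HAV1L, NUAK1 (a protein kinase) and the trio of C12orf57, PTPN6 and RNU7-1. Their mean levels lay between 13.4 and 16.9 FPKM, except for PTPN6 at 0.872 FPKM and RNU7-1 without a count.
The most crowded member, chr17:7572001-7590000, held 6 TSSs, those of EIF4A1, CD68, MPDU1 and 3 small nucleolar RNAs.

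Of the 345 genes of 12 pathway lists in the table, 5.22% had a TSS in a member, close to the 5.01% of all genes. Of the 14 AP-1 and ATF factors, 0 had a member at the TSS or in the body, and 9 had a TSS in a peak shared with mH2A1. Of 25 Hippo and TEAD pathway genes, 0 had a TSS in a member and 7 had one in the body (WWTR1, TEAD1, TEAD2, TEAD4, VGLL4, WWC1 and PTPN14). Among 39 actin cytoskeleton genes, TPM2 (a tropomyosin, 8.12 and 8.26 FPKM in the WT libraries) was the sole gene with a member at its TSS, and 6 had one in the body. Among 37 focal adhesion and integrin genes, the TSSs of ITGAV (integrin alpha V, 13.3 and 12.2 FPKM) and TGFB1I1 (the focal adhesion adaptor Hic-5, 9.64 and 8.55 FPKM) lay in members, and 8 had one in the body.
Of 24 genes of the epithelial-mesenchymal transition, THBS1 alone started in a member, and 4 others had one in the body. Of 24 epithelial and luminal genes, ESRP2 (an epithelial splicing regulator, 0.746 and 1.03 FPKM) started in a member, and ERBB2, KRT7 and OVOL2 had one in the body. Among 29 genes of the EGFR, RAS and ERK pathway in the table, the feedback inhibitors DUSP4 (58.4 and 56.7 FPKM) and SPRY4 (30.1 and 29.7) started in members.
Of 27 TGF-beta pathway genes, the ligands BMP4 (76.1 and 76.4 FPKM) and TGFB3 (0.861 and 0.648) and the receptor BMPR2 (21.3 and 20.6) did. Of 34 genes of the cell cycle and replication, 5 did, among them CCNB1 (cyclin B1, 110 and 122 FPKM), CDK4 (a G1 kinase, 35.9 and 41.8), MCM2 (a subunit of the replicative helicase, 25.4 and 26.4) and E2F3 (18.8 and 20.4). Of 26 genes of NF-kB signalling and cytokines, 0 did, and LIFR had a member in its body.

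The members were richer in G and C than their surroundings. Their median GC content was 46.8% (quartiles 44.1% and 50.3%), against 44.7% in flanks of the same width on either side, and the median difference of a member from its own flanks was 1.79 percentage points (95% interval of the median 1.67 to 1.92). It was positive in 2708 members (73.6%). The difference was 3.71 points in members with a TSS, 1.2 points in those in a gene without its TSS and 1.63 points in those between genes. In the 1891 members without any annotated transcript start it was 1.3 points (1.19 to 1.42). Mid-width common peaks had a GC content of 48.3%, and single-bin mH2A1.1-only peaks 45%, each with a median difference of 2.17 points from its flanks.
Short motifs were counted on both strands. GGGCGG occurred at 0.456 matches per kb in members and 0.314 in flanks, a ratio of 1.45, and CCGGAA at 0.128 and 0.102, a ratio of 1.26. AGGGGGC, part of the CTCF site, had a ratio of 1.23. The CpG dinucleotide, written CG, had a ratio of 1.2. TGANTCA was as frequent in members (0.314 per kb) as in flanks (0.308 per kb), and GGAATG (bound by TEAD factors) and TGTGGT (bound by RUNX factors) had ratios of 1.02 and 0.997. TGTTTAC, of FOX factors, was less frequent, at a ratio of 0.914. Of the 1266 members of 6 kb, 82.9% held TGANTCA, close to the 84.0% of 1193 mid-width common peaks of that width, and 75.5% held GGGCGG, against 76.9%. Motifs with more G and C had the higher ratios here, and the part of base composition in them was not tested.
RefSeq promoters of 300 bases were found by symbol for 874 of the genes that start in members. GGGCGG was in 68.6% of them and in 44.6% of all 27305 promoters with a symbol, CCGGAA in 31.0% and 17.6%, and CCAAT in 38.2% and 35.7%. TATANA was in 9.84% and 19.7%, AAACACA in 3.66% and 5.76% and TGANTCA in 5.03% and 7.76%. The promoters of H1-4 and H1-2 printed above, with TATANA and AAACACA, were thus of a kind that few member promoters share. The median number of CG dinucleotides per promoter was 26.0 at members and 14.0 over all. The 27305 promoters were not limited to genes of the count table, and those at other mH2A1.1 peaks were not counted separately. Whether these contrasts are particular to members was therefore not tested.

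RNA of the KD libraries was then compared with that of the WT libraries. Because WT cells were given no siRNA, a response to siRNA itself cannot be told apart from loss of mH2A1.1. The libraries held 9794674 and 7856892 counts in WT and 5584962 and 2309549 in KD, and in KD replicate 2 chromosomes 22 and X were empty and chromosome 21 held 30 counts, so the genes of these chromosomes were left out of the fit, among them RUNX1. Of the marker genes of other cell types, those of luminal breast cells summed to 577 and 633 CPM (counts scaled to the library total) in WT and 916 and 1389 in KD with ESR1 and PGR at 0 in all 4 libraries, those of fibroblasts to 41.6 and 46.2 CPM in WT and 65.9 and 95.7 CPM in KD with DCN at 0, those of endothelial cells to between 10.4 and 14.0 CPM, those of leukocytes to at most 3.47 CPM, and mesenchymal markers of the line to 7215 CPM or more. The part of these markers in the results was not tested. MACROH2A1, whose gene count does not separate its isoforms and which has no member, had 385 and 394 CPM after TMM normalization in the WT libraries and 274 and 300 CPM in the KD libraries. KD and WT values did not overlap, KD being lower. Its log2 fold change of -0.44 had a standard error of 0.173, and edgeR, by a quasi-likelihood F test with p adjusted by Benjamini-Hochberg over all genes fitted, gave an adjusted p of 0.205.
Of the 1155 genes that start in members, 802 passed the filter on low counts, 283 did not, and 70 lay on chromosomes 21, 22 and X. With a call defined as a fold change above 1.5 at an adjusted p below 0.1, edgeR called 0 of the 802, and 0 of all 10963 genes tested (0.0%), with 0.176 as the smallest adjusted p and 2540 of all genes at an unadjusted p under 0.05. By the same fold and a p below 0.05 before adjustment, 48 of the 802 (5.99%) were lower and 85 (10.6%) higher in KD, against 9.37% lower and 9.45% higher over all genes. DESeq2, the tool of the study, gave an adjusted p to 587 of them and called 24 (4.09%) lower and 36 (6.13%) higher, against 5.86% lower and 5.59% higher of all genes with an adjusted p.
The direction moved with the GC content of exons. The median log2 fold change of the 802 genes was 0.07, and it was -0.28 in the 267 of them with the lowest GC content (33.9% to 45.7%) and 0.42 in the 268 with the highest (53.9% to 68.1%). These medians were -0.14 and 0.16 in KD replicate 1 and -0.46 and 0.67 in KD replicate 2, relative to the mean of WT. Across the 802 genes Pearson's r between GC content and log2 fold change was 0.61, where the genes share the same 4 libraries and are not replicates. Genes at mid-width common peaks, with a median exonic GC content of 54.2%, had a median log2 fold change of 0.18, and genes at single-bin mH2A1.1-only peaks, at 44.5%, had -0.13. With offsets for GC content and gene length in edgeR, the medians of the member genes with the lowest, middle and highest GC content were -0.01, -0.01 and 0.0, as the construction of the offsets, which are trends on GC content and length, requires. DESeq2 with these offsets called 15 of 613 member genes (2.45%) lower and 18 (2.94%) higher, against 2.42% lower and 2.93% higher of all genes, so the shares of calls at members were those of the background. Of the 60 calls of DESeq2 at members, 18 (30%) were called in the same direction with the offsets, against 231 of 875 (26.4%) over all genes. Whether GC content is the cause of these differences between libraries was not tested.

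**Figure D4:**
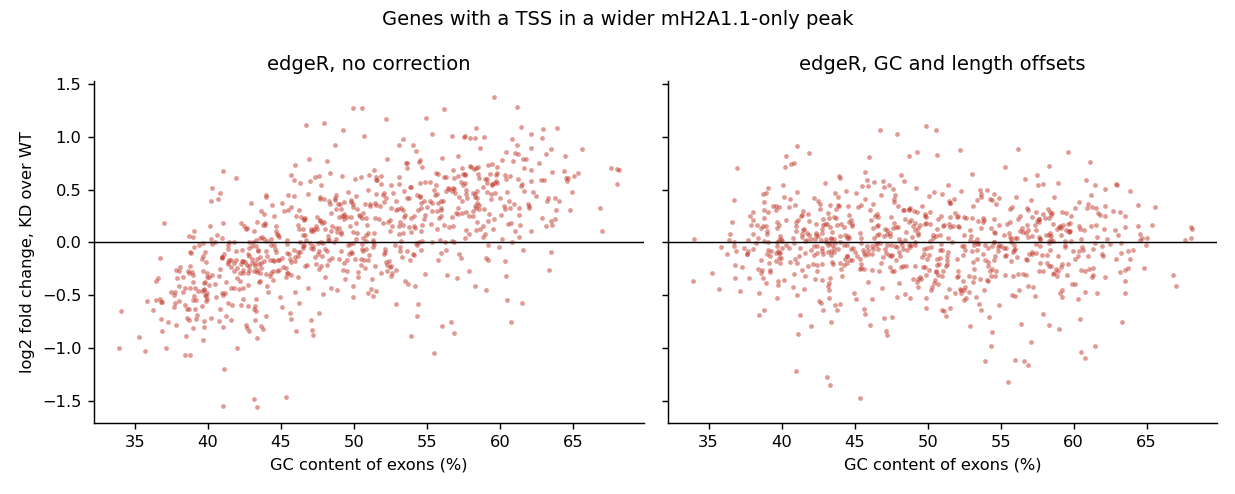
Log2 fold change of KD over WT (y axis) against the GC content of exons in % (x axis) for the 802 tested genes with a TSS in a member, 1 point a gene. In the left panel values rise with GC content (r = 0.61), and in the right panel, with offsets for GC content and gene length, they do not (r = -0.02), which follows from how the offsets are made.

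The 5 genes with the smallest p among the lower ones were PAFAH1B2, USP28, ATL3, FAM111B and E2F3, and the first 4 lie on chromosome 11. PAFAH1B2 (TSS at 117144284, member chr11:117138001-117150000, its promoter printed above) had 327 and 311 CPM in the WT libraries and 117 and 98.8 CPM in the KD libraries. KD libraries were lower by a log2 fold change of -1.56, with a standard error of 0.187 and an adjusted p of 0.176 in edgeR and 1.07e-07 in DESeq2.
ATL3, a GTPase that fuses membranes of the endoplasmic reticulum, had 499 and 468 CPM in WT and 199 and 129 CPM in KD (log2 fold change -1.55, standard error 0.242). USP28, a deubiquitinating enzyme, had 84.5 and 86.1 CPM in WT and 35.0 and 24.6 CPM in KD (log2 fold change -1.49, standard error 0.222). FAM111B, a serine protease, had 129 and 127 CPM in WT and 67.8 and 60 CPM in KD (log2 fold change -1.0, standard error 0.179).
For all 3, KD libraries were below WT libraries without overlap, with an adjusted p of 0.176 in edgeR. DESeq2 called all 3, and with the offsets it called PAFAH1B2, ATL3 and USP28 but not FAM111B, whose log2 fold change was then -0.42 (adjusted p = 0.205 in DESeq2).
E2F3, whose member chr6:20400001-20415000 touches an mH2A1 peak, had 98.0 and 107 CPM in WT and 59.5 and 51.0 CPM in KD. The log2 fold change of E2F3 was -0.88, with a standard error of 0.186 and an adjusted p of 0.176 in edgeR and 0.0258 in DESeq2. With the offsets in DESeq2 it was -0.87 (adjusted p = 0.000719). The other genes named by the study that have a member are PDHX, which encodes a component of the pyruvate dehydrogenase complex, and FRAS1, which encodes an extracellular matrix protein. PDHX had 53.7 and 53.8 CPM in WT and 33.6 and 26.5 CPM in KD, with an adjusted p of 0.194 in edgeR and 0.0689 in DESeq2. FRAS1 was higher, with 94.2 and 98.4 CPM in WT and 143 and 154 CPM in KD, and an adjusted p of 0.194 in edgeR and 0.101 in DESeq2. The study chose these genes on the same libraries, so their direction is not independent evidence.

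The 5 genes with the smallest p among the higher ones were RRAS, ATOSB, STK40, ITPKC and TNFAIP1, and the first 4 start in members of 18 kb. RRAS, a small GTPase related to Ras, had 33.9 and 40.1 CPM in WT and 67.4 and 90.3 CPM in KD (log2 fold change 1.08, standard error 0.221). ATOSB had 23.7 and 21.3 CPM in WT and 42.9 and 67.1 CPM in KD (log2 fold change 1.26, standard error 0.261). STK40, a pseudokinase, had 138 and 146 CPM in WT and 236 and 335 CPM in KD (log2 fold change 1.00, standard error 0.220).
ITPKC, an inositol trisphosphate kinase, had 9.78 and 10.3 CPM in WT and 19.3 and 20.3 CPM in KD. TNFAIP1, an adaptor of CUL3 ubiquitin ligases, had 82.1 and 81.3 CPM in WT and 131 and 181 CPM in KD.
In each of the 5 genes both KD libraries were above both WT libraries, with an adjusted p between 0.176 and 0.194 in edgeR. DESeq2 called all of them but ITPKC, to which it gave no adjusted p. With the offsets DESeq2 called ATOSB (log2 fold change 0.92) and TNFAIP1 (0.67), whereas RRAS (0.49) and STK40 (0.58) no longer passed both thresholds.

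**Figure D5:**
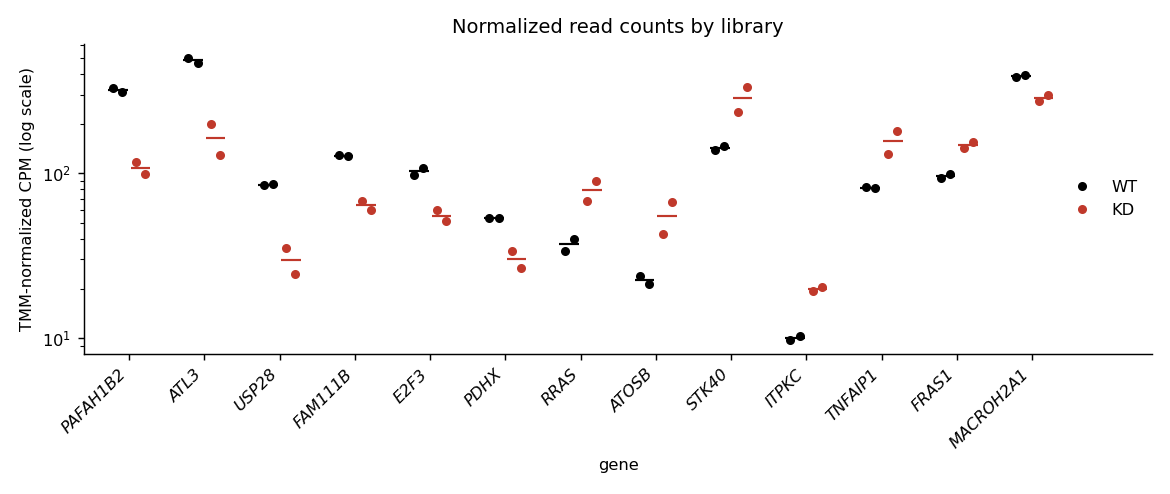
TMM-normalized CPM (y axis, log scale) of named genes by library, with WT in black and KD in red, points for the 2 libraries of each group and lines for their means. In all 13 genes the points of the groups do not overlap, and MACROH2A1, the targeted gene, is the only gene shown without a member.

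Among the genes with the highest WT level at members, H1-4 had 1012 and 1088 CPM in WT and 860 and 580 CPM in KD, H1-2 had 657 and 706 CPM in WT and 630 and 471 CPM in KD, and both had an adjusted p above 0.1 in edgeR and in DESeq2. The core histone genes H4C2, H2BC5 and H2AC20 were highest in KD replicate 2, as in H4C2 with 124 and 143 CPM in WT and 128 and 482 CPM in KD. DESeq2 called H2AC20 higher without the offsets (adjusted p = 0.0505) and not with them. TMSB10 had 491 and 536 CPM in WT and 751 and 1278 CPM in KD, and DESeq2 called it without the offsets (adjusted p = 0.0195) and not with them (log2 fold change 0.42). G0S2 had 149 and 164 CPM in WT and 86.0 and 165 CPM in KD. With the offsets it was called lower by edgeR (adjusted p = 0.00997) and by DESeq2 (adjusted p = 9.09e-06). Without the offsets neither tool called it.
Among the pathway lists, edgeR called 0 genes. Of the list genes that start in members, DESeq2 called E2F3 and BMPR2. BMPR2 had 268 and 260 CPM in WT and 183 and 116 CPM in KD, with an adjusted p of 0.0513 in DESeq2 and 0.154 with the offsets.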

How the data were processed

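MDA-MB-231 cells were profiled by ChIP-seq (1 library each for mH2A1.1 and mH2A1) and by RNA-seq (2 WT and 2 KD libraries). The authors aligned reads to GRCh38 (STAR 2.5.1), called peaks against the input with the normR package and deposited peak positions with a score column that is 0 throughout, so peaks cannot be ranked. The deposited RNA-seq values are raw counts per gene, made by the authors with htseq-count at its default setting after removal of duplicates. The library kit marks strand, but whether the default strand setting of the counter matched it was not checked, so values of overlapping and antisense genes are uncertain. The annotation behind the counts is not given in the sources used here. The ChIP input and the promoter capture Hi-C samples were not used here.

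Peaks were rounded to 3000 bp, and overlap meant at least 1 bp. Of 23167 gene IDs, 23061 matched GENCODE release 44. The other IDs held 0.12% to 0.176% of a library's counts. FPKM was calculated from counts, the sum over protein-coding genes and the summed exon length, with a pseudocount of 0.1 before log2. The test on counts was that of edgeR 4.0.16, run in R 4.3.3 (TMM, its filter on low counts, quasi-likelihood F test, Benjamini-Hochberg), with calls at a fold change above 1.5 and an adjusted p below 0.1. DESeq2 1.42.0 and offsets from lowess trends on GC content and length were alternatives, as were other filters, normalizations, gene sets, TSS rules and leaving out each library. The edgeR test was tested on simulated data for KD against WT with 200 changed genes. At a biological coefficient of variation of 0.05 (10993 genes) it recovered 98% of log2 changes of 1 and 100% of those of 2, and at 0.15 (10990 genes) it recovered 74% and 100%. The coefficient in the real libraries was 0.166. The simulated libraries shared a common coefficient and had no trend of fold change with GC content, unlike the real ones. These shares therefore do not give the power of the test in the real libraries.

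The members and gene lists were chosen with earlier results of these data known. Named genes are the 12 members of 21 kb with the highest level of their genes, the 10 genes of highest WT level, the 5 lower and 5 higher genes of smallest p, the genes with the most members (9 because of ties), genes the study named, and at most 4 genes a list, among genes with a TSS in a member. The histone group, the TATA, CCAAT and H1 box motifs, PAFAH1B2 and E2F3 among the printed promoters, TMSB10 and G0S2 in the KD comparison and the member with 6 TSSs were chosen after values were seen. Shares have Clopper-Pearson intervals from scipy 1.17.1. Some list genes and 1 sequence are not reported here.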

Additional observations from a re-analysis of the deposited data

How the results depend on the processing

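The counts of called genes depended on the fit. Over all genes and at member TSSs, edgeR called 0 and 0, also with RLE size factors and with chromosomes 21, 22 and X kept. DESeq2 called 875 of 7642 genes in all and 60 of 587 at members. With these chromosomes kept it called 950 of 9420 and 68 of 718. Without the filter on low counts, edgeR called 2139 of 15068 and 140 of 937. With GC and length offsets, edgeR called 607 of 10963 and 34 of 802. These were 2.62% lower and 1.62% higher at members, against 3.25% and 2.29% over all genes. DESeq2 with the offsets called 431 of 8057 and 33 of 613. The rule on unadjusted p, chosen after seeing the data, gave 2063 of 10963 and 133 of 802. Leaving out 1 library gave 2 to 4744 genes in all and 0 to 318 at members, with 4744 and 318 without KD replicate 1, 909 and 47 without KD replicate 2, 2 and 0 without WT replicate 1 and 17 and 0 without WT replicate 2, where the lone library is assumed to vary like the other group. The cause of these shifts was not tested.

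With the replicate number as a block, edgeR called 2208 of 10963 genes and 143 of 802 at members. With the offsets as well it called 871 and 54 of the same genes. Same-numbered WT and KD libraries deviated together with a correlation of 0.266, but nothing in the labels says that a number marks a shared culture or day.

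The median log2 fold change of member genes was 0.075, and 0.018 (edgeR) and 0.016 (DESeq2) with chromosomes 21, 22 and X kept. With the offsets it was -0.005 in edgeR, with and without the block, and 0.014 in DESeq2. Leaving out a library gave 0.042 to 0.104. Of 169 alternative values for 13 single genes, 79 kept their side of the threshold, 90 passed it and 0 changed direction.

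Counting an mH2A1 overlap of under 50% of a peak as none gave 5778 peaks, and allowing no mH2A1 peak within 9000 bp gave 1933. Without the members that touch an mH2A1 peak, chosen after seeing the data, 3000 remained, 24.5% of them with a TSS. The share with a TSS, 24.1%, became 21.7% for protein-coding genes, 48.6% for the starts of all annotated transcripts, 26.4% within 1 kb of the peak and 5.71% for a midpoint within 1 kb. The share in or across a gene, 72.1%, became 68.0% for protein-coding genes. The GC difference of 1.79 points became 1.38 points without members within 1 kb of a TSS and 1.3 points without members that contain any annotated transcript start, chosen after seeing the data. The median WT level, 2.16 on the log2 scale, became 2.42 and 2.13 with pseudocounts of 1 and 0.01 and 2.92 for genes that pass the filter, and 2.13 to 2.17 with 1 WT library left out. Over all genes that pass the filter the median was 2.81. The peaks come from 1 library per antibody without signal values, so a missing mH2A1 peak cannot be told apart from one under the threshold.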
